A study of Mus musculus with 11 samples.

Results

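The DCIR and dectin-2 lectin cluster comprises 8 mouse genes for C-type lectin receptors of the Clec4 family, namely Clec4a1, Clec4a2, Clec4a3, Clec4a4, Clec4b1, Clec4d, Clec4e and Clec4n. They were chosen by symbol, with earlier results of these data known, as were the gene lists used below. A share of all genes set beside their counts is therefore a description and not a test. All 8 were measured, each by 1 probe set that names no other gene, among 19938 genes on the arrays. The data are 11 Affymetrix whole-transcript arrays of RNA from classical dendritic cells (cDCs) that were sorted from mouse spleen by surface CD172a or CD24. CD172a+ cDCs labelled Zeb2-deficient (4 arrays) came from Zeb2(fl/fl) mice with a CD11c-Cre transgene, which is active in cells that use the CD11c promoter. CD24+ cDCs (3 arrays) and control CD172a+ cDCs (4 arrays) came from Zeb2(fl/fl) mice without Cre. All mice were on the C57BL/6 background and carried floxed Zeb2, so no group has unaltered Zeb2 alleles, and effects of the Cre transgene and of Zeb2 loss cannot be told apart. Ages and treatments other than tissue digestion are not stated in the labels. The labels do not say whether replicates are different mice, and p-values therefore describe the spread of these arrays, which may be technical. The arrays are of bulk RNA, in which fewer cells of a type and less RNA per cell cannot be told apart.

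C-type lectin receptors of this cluster are single-pass membrane proteins with 1 carbohydrate-recognition domain, carried mostly by dendritic cells, monocytes, macrophages and neutrophils. DCIR-type receptors such as Clec4a2 and Clec4a4 carry an inhibitory motif (ITIM) in their tail and recruit phosphatases. Receptors of the dectin-2 type lack a signalling motif of their own and pair with the FcRγ chain, whose activating motif (ITAM) engages the kinase Syk and, through the adaptor CARD9, NF-κB. In mouse spleen, antibodies to the Clec4a4 product are a classical means of marking the CD8-negative dendritic cells, which correspond to the CD172a+ subset.

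Values are log2 expression as deposited, and differences between groups are log2 differences with moderated standard errors (SE) from limma, called at an adjusted p below 0.05 over all genes. Zeb2, the gene whose loss the labels give, read 8.52, 8.32, 9.07 and 9.24 in CD172a+ cDCs labelled Zeb2-deficient, 5.19, 5.08 and 5.52 in CD24+ cDCs, and 8.23, 8.23, 8.26 and 8.61 in control CD172a+ cDCs. It was thus not lower in the arrays labelled Zeb2-deficient than in control CD172a+ cDCs. No source used here places its probe set inside or outside the floxed segment, and every direction for that group rests on its label. The arrays fell into 2 sets along the second principal component, which held 34.2% of the variance. The first set holds replicates 1 and 2 of both CD172a+ groups and CD24+ replicate 1, and the second holds the rest. Of all genes, 30.1% differed between the sets, and for some of the lectin genes the differences are also given within sets. The sorted subsets carried their defining markers. In CD24+ cDCs 7 of 8 cDC1 markers were higher and 7 of 8 cDC2 markers lower than in control CD172a+ cDCs, while 0 of 8 markers of cDCs in general were called in limma between any pair of groups (at most 1 at an unadjusted p below 0.05).

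CD24+ cDCs had lower levels of most genes of the cluster than control CD172a+ cDCs. Of the 8 genes, 7 were lower in CD24+ cDCs and 0 higher, against 6.41% of all genes called, 3.16% lower and 3.25% higher, and Clec4d was not called. The median difference of the 8 genes was -3.26, beside -0.017 over all genes. The arrays of both groups did not overlap for the same 7 genes, whereas 7.43% of all genes had CD24+ arrays wholly below control CD172a+ arrays and 7.13% wholly above (14.6% in all). In each of these comparisons the CD24+ mean was below the median of all genes in that group (5.49), where background compresses array values, so the differences are not exact ratios.

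The 2 genes for ITIM-bearing receptors were both higher in CD172a+ cDCs of either label than in CD24+ cDCs. Clec4a4, which encodes DCIR2, read 8.93, 8.89, 8.48 and 8.35 in CD172a+ cDCs labelled Zeb2-deficient, 2.89, 3.21 and 3.64 in CD24+ cDCs, and 8.91, 8.89, 7.82 and 8.32 in control CD172a+ cDCs. Every CD24+ array lay more than 4 log2 units below every CD172a+ array, and the 2 CD172a+ groups overlapped. The difference of CD24+ from control CD172a+ cDCs was -5.24 (SE 0.279, adjusted p = 9.02e-07), the largest in size among the 8 genes. Within the first array set, which holds 1 CD24+ array, it was -6.01, against -4.64 within the second. Clec4a2, which encodes DCIR, the prototype inhibitory receptor of the family, read 8.39, 8.30, 8.02 and 7.99 in CD172a+ cDCs labelled Zeb2-deficient, 5.08, 4.82 and 5.30 in CD24+ cDCs, and 8.80, 8.47, 7.93 and 7.99 in control CD172a+ cDCs. Its CD24+ arrays were again all lower than those of both CD172a+ groups, with a difference of -3.23 (SE 0.212, adjusted p = 3.73e-06) from control CD172a+ cDCs.

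Clec4a1 and Clec4a3, which encode the DCIR4 and DCIR3 members of the DCIR group, were likewise lowest in CD24+ cDCs. Clec4a1 read 9.30, 9.15, 8.37 and 8.61 in CD172a+ cDCs labelled Zeb2-deficient, 3.69, 4.12 and 4.31 in CD24+ cDCs, and 9.46, 9.45, 8.77 and 8.88 in control CD172a+ cDCs. Clec4a3 read 8.02, 8.04, 8.28 and 8.23 in CD172a+ cDCs labelled Zeb2-deficient, 3.99, 4.18 and 4.96 in CD24+ cDCs, and 8.44, 8.55, 8.02 and 8.98 in control CD172a+ cDCs. For both genes the CD24+ arrays stood apart below all CD172a+ arrays. Clec4a1 differed by -5.10 (SE 0.262, adjusted p = 7.43e-07) and Clec4a3 by -4.12 (SE 0.247, adjusted p = 2.1e-06) between CD24+ and control CD172a+ cDCs. Within the first array set, which holds 1 CD24+ array, the Clec4a1 difference was -5.76, against -4.61 within the second, a change of 1.16 (SE 0.208, adjusted p = 0.0399 in limma, with 0.657% of all genes called). This test assumes that the lone CD24+ array of the first set varies like the other groups, as do all fits within that set.

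**Figure D1:**
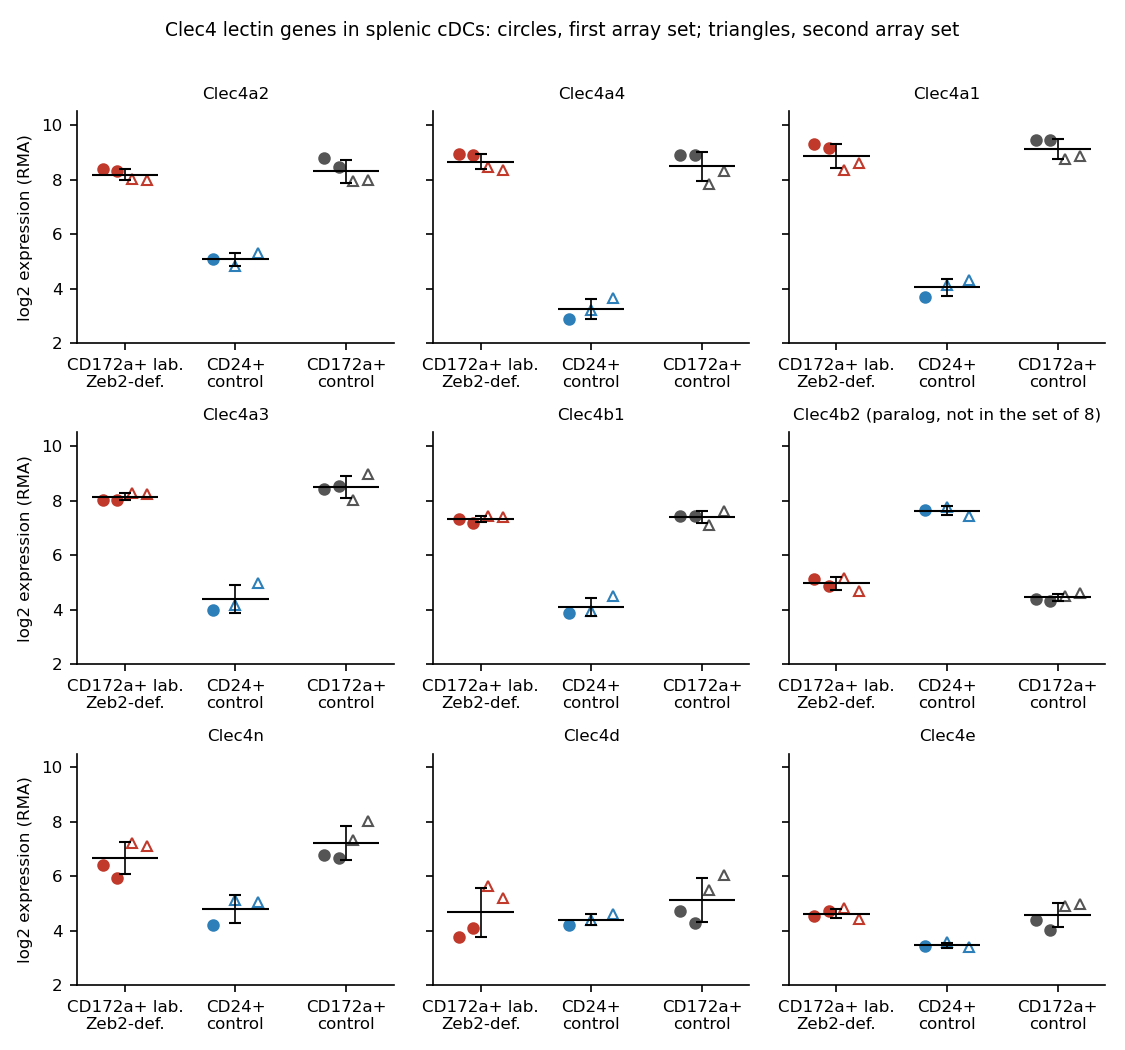
Log2 expression (RMA, vertical axis) of the 8 lectin genes and the paralog Clec4b2 on each array, with CD172a+ cDCs labelled Zeb2-deficient (red), CD24+ control cDCs (blue) and CD172a+ control cDCs (grey) from left to right; circles are the first and open triangles the second array set, and lines and bars are means and SD. CD24+ arrays lie lowest for 7 of the 8 genes (Clec4a4 at 2.89 to 3.64) and highest for Clec4b2 (7.44 to 7.76), and Clec4d and Clec4n lie higher in the second set than in the first in both CD172a+ groups.

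The genes neighbour each other on chromosome 6 (GRCm38.p6 gene order of RefSeq), beginning with Clec4a1, Clec4a3 and Clec4a4, and Clec4a1 and Clec4a3 share a stretch of sequence near their starts. RefSeq promoter windows, from 250 bases before to 50 bases after a start, were held for 6 of the 8 genes and for the paralog Clec4b2, but not for Clec4a4 and Clec4n. The windows of Clec4a1 (chr6:122921598-122921897, plus strand) and Clec4a3 (chr6:122952394-122952693, plus strand, the second of its 2 windows) are shown because both genes were among the 3 most different between the subsets. Capitals mark GAGGAA on either strand (TTCCTC when read on the shown strand), a core recognised by the myeloid and lymphoid factor PU.1.
Clec4a1: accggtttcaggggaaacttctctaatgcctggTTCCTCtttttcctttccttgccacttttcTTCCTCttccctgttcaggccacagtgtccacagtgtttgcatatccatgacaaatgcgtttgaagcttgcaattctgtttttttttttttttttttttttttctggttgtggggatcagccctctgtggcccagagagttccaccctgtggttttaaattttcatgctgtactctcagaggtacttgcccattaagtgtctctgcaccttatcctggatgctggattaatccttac
Clec4a3: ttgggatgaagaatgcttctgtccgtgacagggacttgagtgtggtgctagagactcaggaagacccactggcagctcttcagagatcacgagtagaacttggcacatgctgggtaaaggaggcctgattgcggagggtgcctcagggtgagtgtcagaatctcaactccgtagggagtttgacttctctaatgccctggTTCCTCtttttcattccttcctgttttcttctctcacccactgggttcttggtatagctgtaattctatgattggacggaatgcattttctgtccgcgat
The best local alignment of these windows covered 51 bases, of which 48 were identical (94.1%), and the longest run in common, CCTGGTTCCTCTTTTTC, of 17 bases, contains the motif. The first Clec4a3 window, not shown, does not share this stretch. It holds 0 GAGGAA matches, and its best alignment with the Clec4a1 window covered 8 bases. The motif was looked for after the windows had been read. GAGGAA on either strand was found in a window of 6 of the 7 cluster genes with one, all except Clec4a2, beside 28.3% of all 32851 mouse promoter windows. For each motif a gene was counted if any of its windows matched, whereas the shares are per window, and Clec4a3 has 2 windows. CACCTG, the E-box that Zeb factors bind, was found in 0 of the 7 on either strand, beside 20.2% of all windows. Of the 5 motifs searched, the other 3, an interferon response element, an ETS-IRF composite element and a C/EBP site, were matched in 2, 1 and 1 of the 7 genes, beside 3.44%, 2.72% and 10.8% of all windows. A match of letters is a description and not evidence of binding, and the lack of one says only that these letters are not in these windows.

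Clec4b1 and its paralog Clec4b2 had opposite patterns. Clec4b1, which encodes an activating receptor known as DCAR that pairs with the FcRγ chain, read 7.33, 7.16, 7.42 and 7.38 in CD172a+ cDCs labelled Zeb2-deficient, 3.87, 3.96 and 4.49 in CD24+ cDCs, and 7.42, 7.44, 7.11 and 7.62 in control CD172a+ cDCs. The CD24+ arrays were all lower, with a difference of -3.29 (SE 0.162, adjusted p = 4.86e-07) from control CD172a+ cDCs. Clec4b2 is the only Clec4 gene of the locus outside the 8 and lies between Clec4a2 and Clec4n. It read 5.12, 4.88, 5.16 and 4.67 in CD172a+ cDCs labelled Zeb2-deficient, 7.67, 7.76 and 7.44 in CD24+ cDCs, and 4.39, 4.31, 4.51 and 4.60 in control CD172a+ cDCs. Here every CD24+ array was higher than every CD172a+ array, with a difference of 3.17 (SE 0.138, adjusted p = 1.83e-07) from control CD172a+ cDCs. Close paralogs can share array probes. Cross-hybridisation of these probes was not checked, as no probe sequences were used, but the opposite directions were measured by separate probe sets.

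The promoter windows of Clec4b1 (chr6:123049712-123050011, plus strand) and Clec4b2 (chr6:123172773-123173072, plus strand) are shown because these genes are related in sequence and opposite in expression, with GAGGAA on either strand in capitals.
Clec4b1: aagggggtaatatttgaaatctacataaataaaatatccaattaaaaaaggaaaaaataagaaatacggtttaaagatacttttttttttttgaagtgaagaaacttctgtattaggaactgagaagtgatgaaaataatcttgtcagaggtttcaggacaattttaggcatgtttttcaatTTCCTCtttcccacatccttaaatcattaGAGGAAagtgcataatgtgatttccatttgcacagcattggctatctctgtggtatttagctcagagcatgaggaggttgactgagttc
Clec4b2: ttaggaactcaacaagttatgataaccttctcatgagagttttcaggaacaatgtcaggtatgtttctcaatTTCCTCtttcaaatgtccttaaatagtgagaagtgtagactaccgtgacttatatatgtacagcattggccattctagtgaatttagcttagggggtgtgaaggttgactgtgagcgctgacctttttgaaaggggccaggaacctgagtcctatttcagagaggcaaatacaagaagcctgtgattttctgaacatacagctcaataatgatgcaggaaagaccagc
Their best local alignment covered 174 aligned bases with 143 identical (82.2%) and 18 gap bases, the highest alignment score among the windows of different cluster genes. Clec4b1 holds 2 GAGGAA matches in its window and Clec4b2 holds 1, and the longest run in common, TCAATTTCCTCTTTC of 15 bases, contains 1 match.

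**Figure D2:**
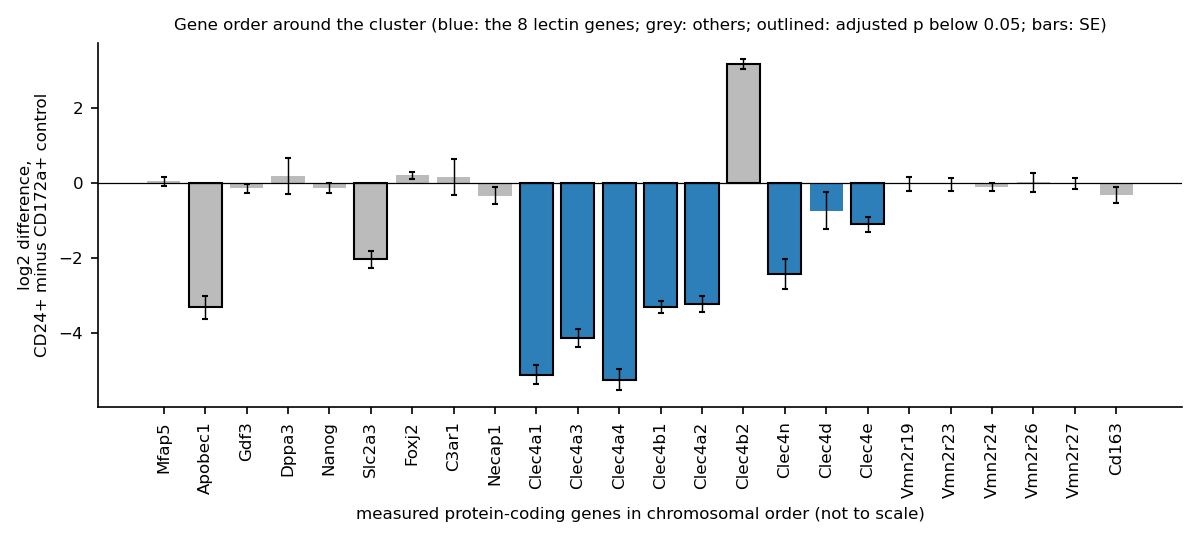
Log2 difference of CD24+ control minus CD172a+ control cDCs (vertical axis, error bars SE) for the measured protein-coding genes in chromosomal order, not to scale, with the 8 lectin genes in blue, other genes in grey and genes with adjusted p below 0.05 outlined. Clec4b2 at 3.17 stands between Clec4a2 at -3.23 and Clec4n at -2.42, and of the genes flanking the cluster Apobec1 (-3.31) and Slc2a3 (-2.03) were also lower.

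Clec4n and Clec4e, of the dectin-2 end of the cluster, were lower in CD24+ than in control CD172a+ cDCs, by smaller differences than the DCIR genes and Clec4b1. Clec4n, which encodes dectin-2, a receptor for fungal mannans, read 6.41, 5.94, 7.22 and 7.09 in CD172a+ cDCs labelled Zeb2-deficient, 4.19, 5.11 and 5.05 in CD24+ cDCs, and 6.78, 6.66, 7.34 and 8.03 in control CD172a+ cDCs. The CD24+ arrays were the lowest, and within both CD172a+ groups the second array set read higher than the first. CD24+ differed from control CD172a+ cDCs by -2.42 (SE 0.393, adjusted p = 0.00295), and by -2.53 and -2.61 in the first and second sets. Clec4e, which encodes Mincle, a receptor for mycobacterial glycolipid and for products of dead cells, read 4.55, 4.72, 4.82 and 4.41 in CD172a+ cDCs labelled Zeb2-deficient, 3.44, 3.57 and 3.39 in CD24+ cDCs, and 4.40, 4.01, 4.90 and 4.96 in control CD172a+ cDCs. All its group means were below the all-gene median. The difference of CD24+ from control CD172a+ cDCs was -1.10 (SE 0.208, adjusted p = 0.00814). It was -0.76 with an adjusted p of 0.104 in limma within the first set, which holds 1 CD24+ array, and -1.45 within the second.

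Clec4d, which encodes MCL, the partner of Mincle in heterodimers, was the gene of the cluster without a called difference over all arrays. It read 3.75, 4.10, 5.64 and 5.20 in CD172a+ cDCs labelled Zeb2-deficient, 4.20, 4.39 and 4.60 in CD24+ cDCs, and 4.71, 4.26, 5.48 and 6.05 in control CD172a+ cDCs. The second-set arrays of both CD172a+ groups were above all CD24+ arrays. The first-set arrays labelled Zeb2-deficient were below all CD24+ arrays, those of control CD172a+ cDCs lay on either side of the CD24+ median, and all means were below the all-gene median. CD24+ differed from control CD172a+ cDCs by -0.73 (95% interval -1.81 to 0.35, adjusted p = 0.59). With the array set as a block the difference was -0.91 with an adjusted p of 0.0218 in limma. Within the second set alone it was -1.27 with an adjusted p of 0.0221 in limma, so that 8 of the 8 genes were called lower under either fit. Within the first set, which holds 1 CD24+ array, the Clec4d difference was only -0.29. The call under the block thus joins 2 unlike values. Over all genes the fits with the block and within the second set called 3080 and 1753 of 19938, against 1278 in the fit by group alone.

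Of the 8 genes, 3 were called between the array sets, a share near the 30.1% of all genes. Fitted with the group, the second set exceeded the first by 1.11 for Clec4d (adjusted p = 0.000979 in limma) and by 0.95 for Clec4n (adjusted p = 0.000143), whereas Clec4a2 was lower there by a difference of -0.38 (adjusted p = 0.0316) and the other 5 genes were not called. The sets were found from the same values, so these counts only describe them. Of 13 splenic macrophage markers, 12 were higher in the second set and 0 lower, with a median difference of 0.98. Their mean log2 level per array was 6.38 to 6.62 in the second-set arrays of CD172a+ cDCs labelled Zeb2-deficient, against 5.24 to 5.31 in the first set, 5.75 to 5.84 in CD24+ cDCs of the second set, against 5.10 in the first, and 6.54 to 6.60 in control CD172a+ cDCs of the second set, against 5.18 to 5.31 in the first. Of 13 neutrophil markers 1 was higher in the second set, and of 13 monocyte markers 2 were higher and 2 lower. The part of these cells in the levels of Clec4d and Clec4n was not tested.

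No gene of the cluster was called between CD172a+ cDCs labelled Zeb2-deficient and control CD172a+ cDCs. In limma 0 of the 8 were called, where 0.0502% of all genes were (0.0401% higher and 0.01% lower). At an unadjusted p below 0.05 there were also 0 of the 8, beside 3.88% of all genes, with a smallest p of 0.143 for Clec4a3, and the arrays of both groups overlapped for all 8, whereas 2.1% of all genes did not overlap (1.09% with the arrays labelled Zeb2-deficient higher and 1.01% lower). Differences ranged from -0.54 for Clec4n to 0.18 for Clec4a4, with a median of -0.20 beside 0.006 over all genes, and 6 of the 8 were negative. A p that misses the threshold does not show that the levels are equal, and the 95% intervals give the sizes that these data allow. The interval was -0.39 to 0.74 for Clec4a4, -0.55 to 0.31 for Clec4a2, -0.82 to 0.25 for Clec4a1, -0.86 to 0.14 for Clec4a3 and -0.40 to 0.26 for Clec4b1. These 5 intervals and that of Clec4e (-0.37 to 0.48) lie within 1 log2 unit of 0 on either side. The intervals of Clec4n (-1.34 to 0.26) and Clec4d (-1.45 to 0.55) extend beyond a halving in the group labelled Zeb2-deficient. Within sets the Clec4e difference was 0.43 (first) and -0.32 (second), a change that was not called (adjusted p = 0.603 in limma), where 0.00502% of all genes were.

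**Figure D3:**
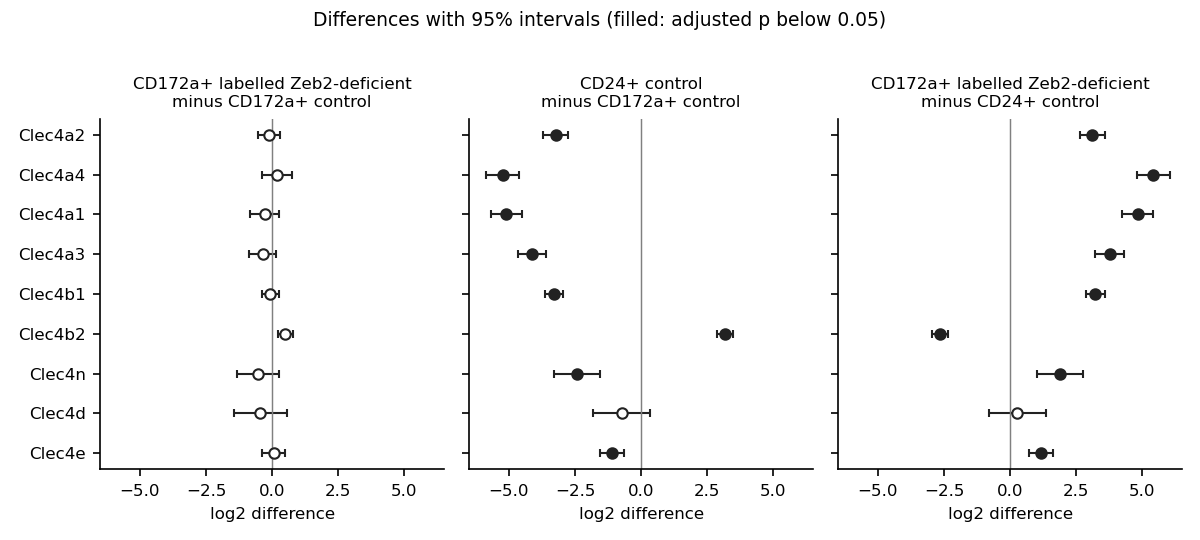
Log2 differences (horizontal axis) with 95% intervals for the 8 genes and Clec4b2 in the 3 comparisons, filled where the adjusted p was below 0.05. Differences of CD172a+ cDCs labelled Zeb2-deficient from control CD172a+ cDCs lie between -0.54 and 0.50 with none filled, while those involving CD24+ cDCs reach -5.24 and 5.41.

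Markers of other cells that carry these lectins were compared in the same groups. Of 13 measured monocyte markers, 1, the lysozyme gene Lyz2, was lower in CD172a+ cDCs labelled Zeb2-deficient than in control CD172a+ cDCs (-1.66, adjusted p = 0.00894 in limma). At an unadjusted p below 0.05 there were 5 lower and 0 higher. Of all genes, 0.0502% were called in this comparison and 3.88% had an unadjusted p below 0.05, in either direction. The mean log2 level of the list was 6.16 to 6.67 per array in CD172a+ cDCs labelled Zeb2-deficient, 6.38 to 6.53 in CD24+ cDCs and 6.71 to 7.20 in control CD172a+ cDCs. Neutrophil markers averaged 4.45 to 4.58, 4.28 to 4.37 and 4.39 to 4.77 per array in the same groups, all below the all-gene median. Between the CD172a+ groups 0 of 13 neutrophil markers were called. At an unadjusted p below 0.05, 1 of them, Csf3r, was higher in the group labelled Zeb2-deficient (0.60, adjusted p = 0.244 in limma), with arrays that did not overlap. Between CD24+ and control CD172a+ cDCs, 3 monocyte markers were lower, namely Csf1r (-2.71), Fcgr4 (-1.22) and Adgre4 (-3.28). Others of the list went the other way without being called, among them Ccr2 (1.14, adjusted p = 0.0569 in limma) and Treml4 (1.59, adjusted p = 0.0689), both with all CD24+ arrays higher. At an unadjusted p below 0.05 there were 2 higher and 4 lower, beside 15.9% of all genes in either direction. The median difference over the list was -0.09. Of the neutrophil markers 2 were lower, Mmp9 (-0.93) and Csf3r (-0.71). The part of such cells in the lectin values was not tested.

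Clec4b2 read higher in each array labelled Zeb2-deficient than in any control CD172a+ array, by a mean of 0.50 (SE 0.127). With an unadjusted p of 0.00231 and an adjusted p of 0.748 in limma this was not called, nor was it with the array set as a block (adjusted p = 0.181). Of all genes, 1.09% had arrays labelled Zeb2-deficient wholly above those of control CD172a+ cDCs. All CD172a+ arrays of both labels were below the all-gene median for Clec4b2. Of 23 C-type lectin receptors outside the cluster, 0 were higher and 3 lower in this comparison at an unadjusted p below 0.05, beside 3.88% of all genes in either direction. Clec9a, like Clec4b2 higher in CD24+ cDCs, was among the lower ones (-0.72), with arrays that did not overlap. It was not called either.

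Set against CD24+ cDCs directly, CD172a+ cDCs labelled Zeb2-deficient had higher levels of 7 of the 8 genes and lower levels of 0, against 7.17% of all genes called, 3.25% higher and 3.92% lower. Arrays did not overlap for 17.9% of all genes, 8.9% with CD172a+ cDCs labelled Zeb2-deficient higher and 8.99% with them lower. This comparison shares its arrays with the others. The differences were 5.41 (SE 0.279) for Clec4a4, 4.82 (SE 0.262) for Clec4a1, 3.76 (SE 0.247) for Clec4a3, 3.22 (SE 0.162) for Clec4b1 and 3.11 (SE 0.212) for Clec4a2, with adjusted p from 6.81e-07 to 4.81e-06 in limma. Those of Clec4n (1.88, SE 0.393, adjusted p = 0.0137) and Clec4e (1.16, SE 0.208, adjusted p = 0.00555) were smaller, and that of Clec4d was not called (0.27, adjusted p = 0.846). Without CD24+ replicate 1 the Clec4n difference was 1.59 with an adjusted p of 0.058. Clec4b2 was lower in CD172a+ cDCs labelled Zeb2-deficient than in CD24+ cDCs (-2.66, SE 0.138, adjusted p = 8.28e-07). Within sets the Clec4a1 difference was 5.53 (first) and 4.28 (second), a change of -1.26 between sets that was called (adjusted p = 0.0292, with 0.587% of all genes called).

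Across the 11 arrays some of the genes formed a tight group, and Clec4d lay furthest from it. Clec4a1, Clec4a2, Clec4a3, Clec4a4 and Clec4b1 correlated with each other at Pearson's r of at least 0.97. Clec4n and Clec4e correlated with them at 0.80 to 0.91, and Clec4d at 0.21 to 0.40. Clec4n and Clec4e correlated with each other at 0.87, and Clec4d with Clec4n at 0.69 and with Clec4e at 0.53. These correlations share the split between CD24+ and CD172a+ arrays and are given as descriptions without a test. The genes are paralogs, and cross-hybridisation of their probes was not checked, so their values need not be separate measurements. Apart from other genes of the cluster, the genes most like Clec4a1 over the 11 arrays were Sirpa (r = 0.998), which encodes the CD172a used to sort the cells, and Carmil1 (0.995). For Clec4a2 they were Carmil1 (0.996) and Sirpa (0.994), for Clec4a4 Pgap1 (0.996), Carmil1 (0.995) and Pram1 (0.995), for Clec4a3 Scel (0.990) and Mmp12 (0.988), and for Clec4b1 Dscam (0.995) and Tctex1d2 (0.995). Clec4a3 and Clec4b1 were each other's closest gene (0.996). The genes most like Clec4n were Cd300ld (0.979), Cdk17 (0.976) and Rasgrp1 (0.972), those most like Clec4e were Awat2 (0.953), Ttn (0.949) and Cnot6l (0.944), and those most like Clec4d were C1qc (0.963), Esrrg (0.955) and Clec10a (0.955). C1qc, a complement gene of macrophages, is among the macrophage markers above. The C-type lectin gene Clec10a is listed among the cDC2 markers but was not called between CD24+ and control CD172a+ cDCs (-0.35, adjusted p = 0.556 in limma). Its group means, 3.49 to 3.84, were all below the all-gene median. Clec4b2 was most like Clnk (0.991), Rab7b (0.991) and Itgae (0.989), the last a marker of the CD24+ subset.

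The 10 protein-coding genes on either side of the cluster and Clec4b2 within it gave 16 measured neighbours, of which 2 were lower and 1 higher in CD24+ than in control CD172a+ cDCs. Over all genes, 3.16% were lower and 3.25% higher. Apobec1, an RNA-editing cytidine deaminase, had a mean of 5.93 ± 0.87 (SD, n = 3) in CD24+ cDCs, against 9.25 ± 0.20 (SD, n = 4) in control CD172a+ cDCs, with a difference of -3.31 (adjusted p = 6.45e-05 in limma). Slc2a3, the glucose transporter GLUT3, averaged 5.58 ± 0.12 in CD24+ cDCs and 7.61 ± 0.41 in control CD172a+ cDCs (-2.03, adjusted p = 0.000242 in limma). The higher neighbour was Clec4b2. Between CD172a+ cDCs labelled Zeb2-deficient and control CD172a+ cDCs, 0 of the 16 were called in limma and 2 had an unadjusted p below 0.05, beside 0.0502% and 3.88% of all genes.

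Genes of the signalling path used by the dectin-2-type receptors were compared from the receptor chain onwards. Of 7 measured genes of FcRγ and Syk signalling, 4 were lower in CD24+ than in control CD172a+ cDCs and 0 higher, with a median difference of -0.49 beside -0.017 over all genes. Over all genes, 3.16% were called lower and 3.25% higher. Fcer1g, the FcRγ chain with which dectin-2, Mincle and DCAR pair, had a mean of 9.10 ± 0.46 (SD, n = 3) in CD24+ cDCs, against 11.74 ± 0.31 (SD, n = 4) in control CD172a+ cDCs, a difference of -2.64 (adjusted p = 2.08e-05 in limma). Syk, the kinase recruited to ITAMs, averaged 7.45 ± 0.19 in CD24+ cDCs and 9.12 ± 0.21 in control CD172a+ cDCs (-1.68, adjusted p = 1.27e-05 in limma). Fgr, a Src-family kinase, differed by -2.64 (adjusted p = 0.0046) and Tyrobp, the ITAM adaptor DAP12, by -0.49 (adjusted p = 0.0447). Plcg2, Prkcd and Vav1, further along the same path, were not called (-0.02, -0.19 and 0.14). Of 10 measured genes of the CARD9 and NF-κB steps 0 were called in limma, and 3 were lower at an unadjusted p below 0.05. Over all genes, 15.9% had an unadjusted p below 0.05 in this comparison, in either direction. Card9 itself differed by -0.23 (adjusted p = 0.459) and Malt1, the protease of the CARD9 complex, by -1.35 (adjusted p = 0.0514).

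On the inhibitory side, 0 of 3 genes for phosphatases recruited by ITIMs were called in limma between CD24+ and control CD172a+ cDCs. At an unadjusted p below 0.05 there were 2 higher, beside 15.9% of all genes in either direction. Of 9 other ITIM-bearing receptors of leukocytes, 6 were lower in CD24+ cDCs and 0 higher, with a median of -1.50. They were Lair1 (-2.60), a collagen receptor, Siglecg (-2.40), Cd22 (-2.36), Cd72 (-2.18), Lilrb4a (-1.50) and Pecam1 (-0.67), with adjusted p from 6.42e-06 to 0.00861. Of 23 C-type lectin receptors outside the cluster, 5 were lower and 4 higher in CD24+ cDCs, with a median of -0.22. The lower ones were Cd209a (-2.50), Clec7a, which encodes the β-glucan receptor dectin-1 (-2.26), Cd209c (-1.09), Clec4g (-0.91) and Cd209b (-0.87), and the higher ones were Clec9a (4.86), Clec12a (2.35), Clec1a (2.12) and Cd207 (2.07). Of 11 cytokine and effector genes that these receptors can induce, 0 were called in limma. At an unadjusted p below 0.05 there were 1 higher and 3 lower, beside the same 15.9% of all genes.

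Between CD172a+ cDCs labelled Zeb2-deficient and control CD172a+ cDCs, 0 of the 63 measured genes of these 6 lists were called in limma, and 3 had an unadjusted p below 0.05. Over all genes these shares were 0.0502% and 3.88%. Against CD24+ cDCs, CD172a+ cDCs labelled Zeb2-deficient had 14 of the 63 higher and 6 lower, beside 3.25% and 3.92% of all genes. Fcer1g (2.59) and Syk (1.44) were among the higher. Malt1 (1.52, adjusted p = 0.0269), Ptpn11 (-0.66, adjusted p = 0.00962), a phosphatase that ITIMs recruit, and Il12b (-2.81, adjusted p = 0.0145), a subunit of IL-12, were called in this comparison in limma. Their differences of CD24+ from control CD172a+ cDCs were -1.35, 0.42 and 2.21 with adjusted p of 0.0514, 0.0912 and 0.0516.

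**Figure D4:**
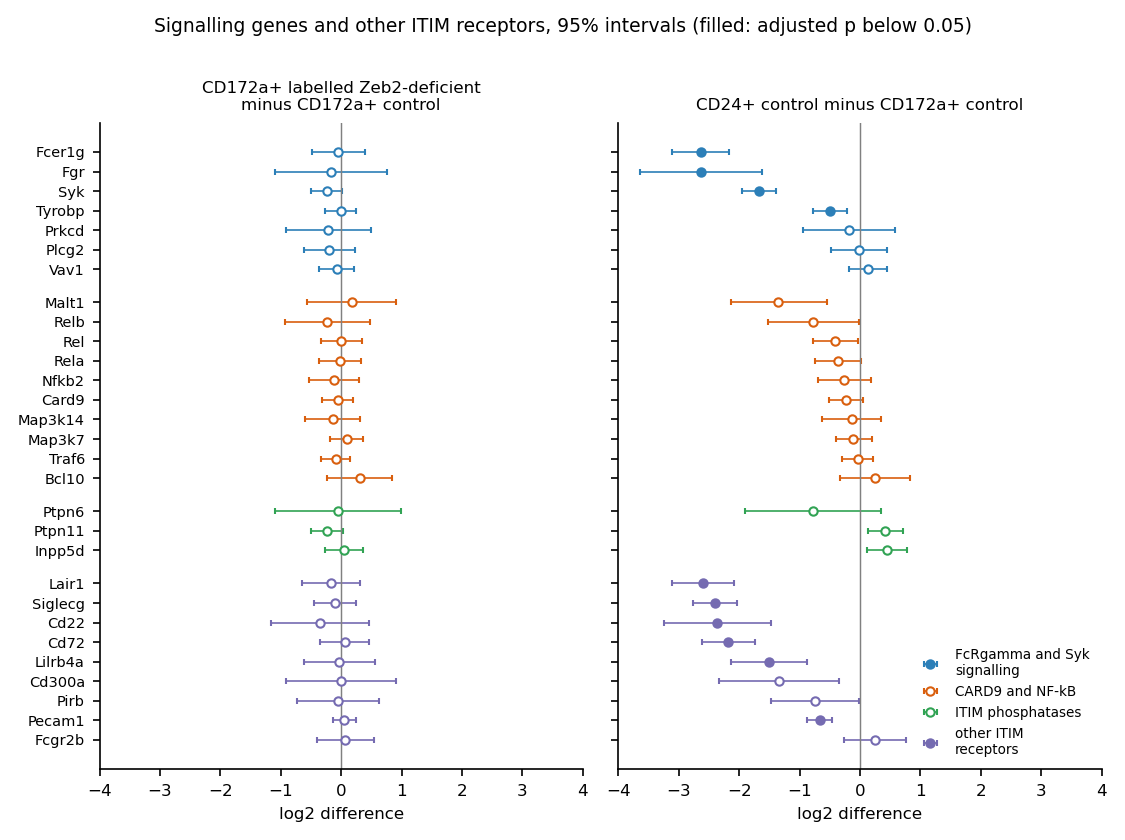
Log2 differences (horizontal axis) with 95% intervals for the measured genes of 4 lists, one gene per row, filled where the adjusted p was below 0.05. In the left panel, labelled Zeb2-deficient minus control CD172a+ cDCs, none is filled, and in the right panel, CD24+ minus control CD172a+ cDCs, 4 of 7 genes of FcRγ and Syk signalling and 6 of 9 other ITIM receptors are filled, all to the left of 0.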

How the data were processed

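Per the submitters' processing notes, the authors made the deposited log2 values with RMA, which subtracts background, normalizes quantiles between arrays and summarises probes per probe set. The software version, probe filters and genome build are not given in the sources used here. Of 30177 probe sets, 21789 carried 1 symbol in the platform annotation, and for each of the 19938 genes the probe set of highest mean over all arrays was used. Array medians were 5.45 to 5.52, and precision is limited by how few arrays there are.

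Groups were compared in limma 3.58.1 (R 4.3.3) with 1 model over all 11 arrays, group as the only factor and Benjamini-Hochberg adjustment over all genes, two-sided. The fit was tested on simulated data. Array sets were read from the second principal component. Deviations from group means were correlated between arrays. Because the sets were read from these same values, positive correlations within sets and negative ones across them were built in. Within a set, same-numbered CD172a+ arrays correlated in a range like that of differently numbered ones. Between the CD172a+ groups, same-numbered arrays correlated at r from 0.442 to 0.68 and differently numbered arrays of the same set at 0.496 to 0.699, against -0.692 to -0.404 across sets. Between CD24+ and control CD172a+ cDCs, same-numbered pairs 1 and 3, of 1 set each, correlated at 0.506 and 0.241, and pair 2, across sets, at -0.445.

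The members and lists were chosen with earlier results of these data known. Genes named are the 8 members, Zeb2, Clec4b2, called genes of the lists and neighbours (up to 6 a list by smallest p), the 3 genes most correlated with each member, predicted genes left out, and marker genes. Some listed signalling genes, Lyn and Nfkb1 among them, were not analysed here. Promoter windows are those of RefSeq, build GRCm38.p6, and were aligned locally. Beyond this rule, the remaining called C-type lectins and the uncalled signalling genes were named after their values were seen. Figures were drawn with matplotlib 3.10.9.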

Additional observations from a re-analysis of the deposited data

Results flagged for a closer look

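The differences of Clec4a1 involving CD24+ cDCs were larger in size in the first array set than in the second. For CD24+ minus control CD172a+ cDCs the change from the first to the second set was 1.16, and for CD172a+ cDCs labelled Zeb2-deficient minus CD24+ cDCs it was -1.26, with adjusted p of 0.0399 and 0.0292 for the interaction in limma. Both values use the 1 CD24+ array of the first set, at 3.69, against 4.12 and 4.31 in the second. Its spread is assumed to be that of the other groups, so that this part of the change has no replicate of its own. The CD172a+ arrays also moved, and were lower in the second set. Control CD172a+ cDCs read 9.46 and 9.45 in the first set and 8.77 and 8.88 in the second. Those labelled Zeb2-deficient read 9.30 and 9.15 in the first and 8.37 and 8.61 in the second. No Clec4a1 difference involving CD24+ cDCs changed direction between the sets. All 3 CD24+ arrays were below the all-gene median for this gene. For Clec4a4 the change of CD24+ minus control CD172a+ cDCs was 1.37, larger in size than that of Clec4a1, but it was not called.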

How the results depend on the processing

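The count of lectin genes called was 0 between the CD172a+ groups under every alternative run. It was 6 to 8 for CD24+ against control CD172a+ cDCs and 6 to 7 for CD172a+ cDCs labelled Zeb2-deficient against CD24+ cDCs. A filter at the median level removed Clec4d and Clec4e. A replicate block fitted to all arrays gave 0, 7 and 7. On the CD172a+ arrays alone (chosen after seeing the data, like the fits within sets) the replicate block gave 0 lectin genes, and 26 calls over all genes. Over all genes, the array set as a block gave 29, 3080 and 3641 calls, against 10, 1278 and 1429 without it. Among the 63 genes of the 6 pathway lists, 33 were called for CD24+ against control CD172a+ cDCs with the array set as a block and 31 in the first set alone, against 19, and 33 and 31, against 20, for CD172a+ cDCs labelled Zeb2-deficient against CD24+ cDCs. The cause was not tested. The replicate block gave 27 and 28, and it changed no call of a lectin gene. This block joins CD24+ replicate 2, of the second set, with the CD172a+ replicates numbered 2, of the first. For comparisons with CD24+ cDCs it therefore does not follow the sets. Leaving out 1 array gave 17 to 21 and 16 to 21.

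No called difference of a lectin gene changed sign. Of the uncalled ones, those of CD172a+ cDCs labelled Zeb2-deficient from control CD172a+ cDCs turned to 0.05 for Clec4a2, 0.04 for Clec4b1 and -0.32 for Clec4e in the second set alone, and that of Clec4d from CD24+ cDCs was -0.27 in the first set alone. With 1 array left out these values ranged from -0.24 to 0.05 for Clec4a2, -0.17 to 0.000648 for Clec4b1, -0.13 to 0.19 for Clec4e, -0.05 to 0.32 for Clec4a4 and, for Clec4d against CD24+ cDCs, from -0.05 to 0.58. The means of Clec4d and Clec4e lay below the all-gene median in every group, which limits what their values show. For Clec4d the spread between array sets, 1.11 when fitted with the group, is a further limit.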
